A study of Mus musculus with 8 samples.

Results

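The early liver response to Cux2 was read from 2 of the 8 two-colour arrays of the series, those whose titles name Adeno-Cux2 at day 3. On each, liver RNA of male mice given Adeno-Cux2, an adenovirus carrying Cux2, was hybridised against liver RNA of male mice given Adeno-CMV, the control adenovirus, with both groups taken 3 days after treatment. All animals were ICR scid mice of 8 weeks, so the defect of the strain and the exposure to an adenovirus are shared by both sides of the ratio, and no untreated male was on these 2 arrays. Mice homozygous for scid lack mature T and B cells and keep natural killer cells and myeloid cells. RNA was pooled before labelling. Array 1 (replicate 1) compared a pool of 5 mice with another of 5, Adeno-Cux2 in the red channel, and array 2 (replicate 2) pools of 6 and 6 other mice with the colours reversed. Values are log2 ratios of Adeno-Cux2 over Adeno-CMV for 22215 genes, each read by its brightest probe, and ± is the standard error of a limma model, with n = 2 arrays. Genes with an adjusted p under 0.05 (Benjamini and Hochberg over all genes, 2-sided) count as called. Pooling leaves out the spread between single mice, and the small number of arrays limits the precision. On these 2 arrays 68.2% to 74.5% of gene spots were well above background in a channel and 0 were saturated. Alb, albumin, the defining hepatocyte product, was well above background in all 4 pools, at channel levels of 17.7 and 18.6 (log2) with Adeno-CMV and 18.8 and 17.6 with Adeno-Cux2. The labels do not name the promoter that drives Cux2 or the cells the virus entered. The other 6 arrays held untreated males over females and the same 2 viruses at day 5 in males and in females, and they share the model's estimate of spread.

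Cux2 is a homeodomain transcription factor of the Cut family, which bind DNA through cut repeats and a homeodomain, and it is best known from upper-layer neurons of the cortex. In mouse liver it is female-specific: growth hormone is secreted in pulses in males and almost continuously in females, STAT5 carries the pulses to the male-biased genes, and Cux2 is among the genes that the female pattern turns on. Liver sex bias falls on secreted urinary proteins, cytochromes P450, sulfotransferases and transporters. The comparison asks which liver genes an excess of Cux2 alters in males, per the purpose given in the labels.

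Cux2 itself stood at 0.39 on array 1 and 0.58 on array 2, a mean of 0.49 ± 0.09 (1.40-fold higher, adjusted p = 0.00439), so both arrays gave a small ratio in the direction of the label. Its channel levels were near the floor of the array, 6.8 and 7.1 (log2) in the Adeno-Cux2 pools and 6.4 and 6.5 in the Adeno-CMV pools. At day 5 the Cux2 levels were 7.0 and 6.9 with Adeno-Cux2 and 6.4 and 6.3 with Adeno-CMV in males. In females the direction was the opposite, 7.4 and 7.6 with Adeno-Cux2 and 8.0 and 8.3 with Adeno-CMV. Untreated males stood at 7.4 and 7.7, above the day 3 Adeno-Cux2 pools. The Cux2 probe used maps to chromosome 5 of mm8 (122121055 to 122121114). The other Cux2 probe (122156086 to 122156145) gave 0.39 and 0.48. Which exon or untranslated region the probes lie in is not given in the sources used here, nor whether the viral copy of Cux2 holds their sequence, so the ratio need not measure the transgene. Its size varied with the background step, from 0.13 to 1.46 over the alternatives. Cux2 lost its call without background subtraction (adjusted p = 0.188), with median centring (adjusted p = 0.0718) and without array 2 (adjusted p = 0.102).

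Both pools of array 2 carried signals that their labels do not give. In the Adeno-CMV pool of array 2, labelled male, Xist, the RNA of the inactive X chromosome, had a channel level of 9.2 (log2), against 6.0 in the Adeno-CMV pool of array 1 and 5.9 to 6.1 in the other treated male pools of both days. The female-biased sulfotransferase Sult3a1 stood at 12.3 there and at 6.2 in the pool of array 1. In the female pools of the series Xist lay between 12.6 and 14.1. The Y-linked Ddx3y, an RNA helicase gene looked up after these values were seen, was also measured, at 13.3 and 13.1 with Adeno-CMV and 13.2 and 13.4 with Adeno-Cux2. On the ratio scale Sult3a1 gave −0.20 and −6.43 on arrays 1 and 2, A1bg, a plasma glycoprotein gene, 0.88 and −4.12 and Sult2a2, a sulfotransferase, 2.26 and −2.92. None of these passed the test at day 3 (adjusted p from 0.0754 to 0.813), and the arrays lay on opposite sides of 0 for A1bg and Sult2a2. Sult3a1 and Xist were not well above background in the Adeno-Cux2 pools.

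The Adeno-Cux2 pool of array 2 held digestive enzyme transcripts of the exocrine pancreas. Pnlip, pancreatic lipase, had a level of 11.9 there, of 7.4 in the Adeno-CMV pool of the same array, and of 6.0 and 6.1 on array 1. The carboxypeptidase Cpb1 stood at 7.8 with Adeno-CMV and 11.4 with Adeno-Cux2 on array 2, a gap not seen on array 1 (5.9 and 6.1). Such signals were not particular to this pool. Pnlip and Cpb1 stood higher still, at 15.6 and 15.2, in the female day 5 Adeno-Cux2 pool of replicate 1. In the untreated male pool of replicate 2 they stood at 13.0 and 12.4. Over 30 measured exocrine pancreas genes the median ratio was −0.04 on array 1 and 2.18 on array 2, the summed level was 13.0 and 15.2 (log2) in the Adeno-Cux2 pools and 13.0 and 13.4 in the Adeno-CMV pools, and 0 members were called higher and 0 lower. Among the 10 genes whose ratio on array 2 most exceeded that on array 1, after subtracting the same difference in the other comparisons, were Pnlip, Cfd, Reg1, Cpb1, Reg2, Prss3, Reg3b, Cpa1 and Cel, all but Cfd and Reg3b on that list. In the opposite direction they included Sult3a1, A1bg, Sult2a2, Hes5, Sult3a2, Slc22a26, Xist, Cck and Nt5e. What brought these transcripts into the pools was not tested. List medians are therefore given on each array where they differ most, and for some other lists. A single median does not mean that the arrays gave the same value. A count of calls that moved by over 1.5 times without an array is given with and without it.

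**Figure D1:**
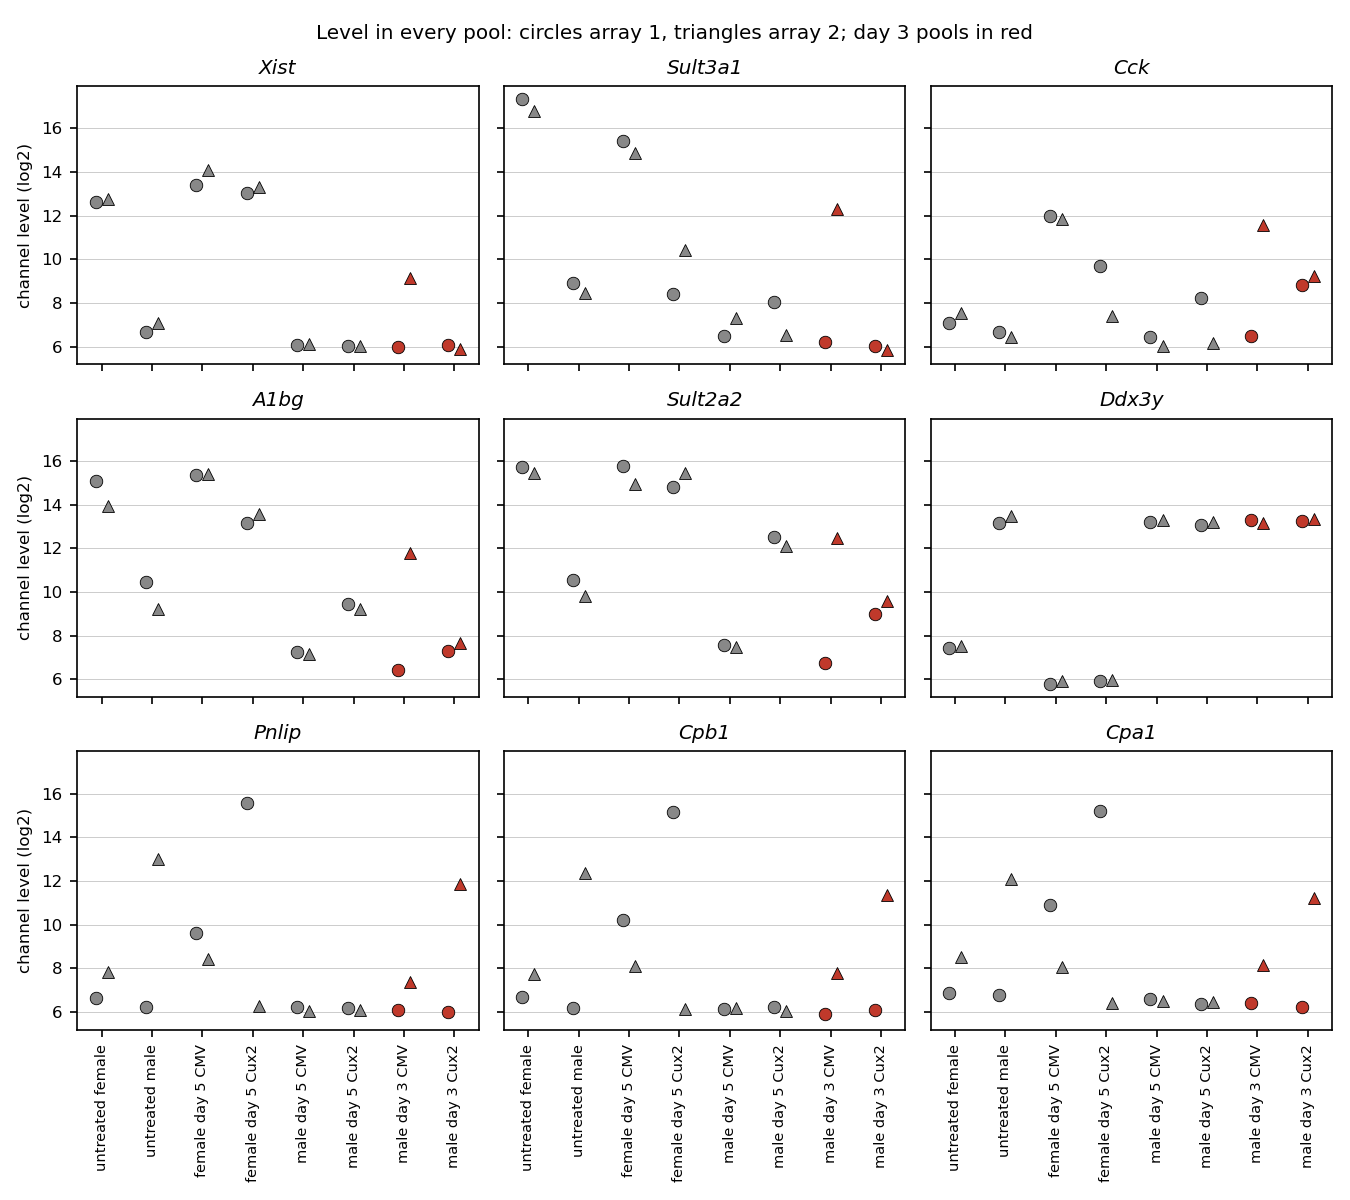
Channel levels (log2, vertical axis) of 9 genes in every pool of the 8 arrays, with circles for array 1 and triangles for array 2 of each comparison and the day 3 pools in red. The Adeno-CMV triangle of day 3 stands at 9.2 for Xist and 12.3 for Sult3a1, above the other treated male pools, and the Adeno-Cux2 triangle stands at 11.9 for Pnlip.

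Liver RNA differed broadly between the Adeno-Cux2 and Adeno-CMV pools at day 3. Of 22215 genes tested, 5272 (23.7%) were called higher and 4508 (20.3%) lower with Adeno-Cux2, together 9780 (44.0%), and 9755 of these had the same sign on both arrays. The calls rest on these same arrays, which by itself favours a shared sign. By at least 2-fold, 1062 genes (4.78%) were higher and 678 (3.05%) lower. Over all genes 79.3% of ratios lay on the same side of 0 on both arrays, and the median ratio was −0.0024. Without array 2 the calls were 3136 higher (14.1%) and 2288 lower (10.3%), and without array 1 they were 3248 (14.6%) and 2716 (12.2%). In both fits the lone array was assumed to vary like the other comparisons. Among the calls, 53.9% were higher. Median centring in place of loess moved the median ratio of array 1 to 0.179 and this share to 68.5%, so small ratios depend on the centring. Against these shares, given as the background for the lists below, each list of genes is described by its count of calls and its median.

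**Figure D2:**
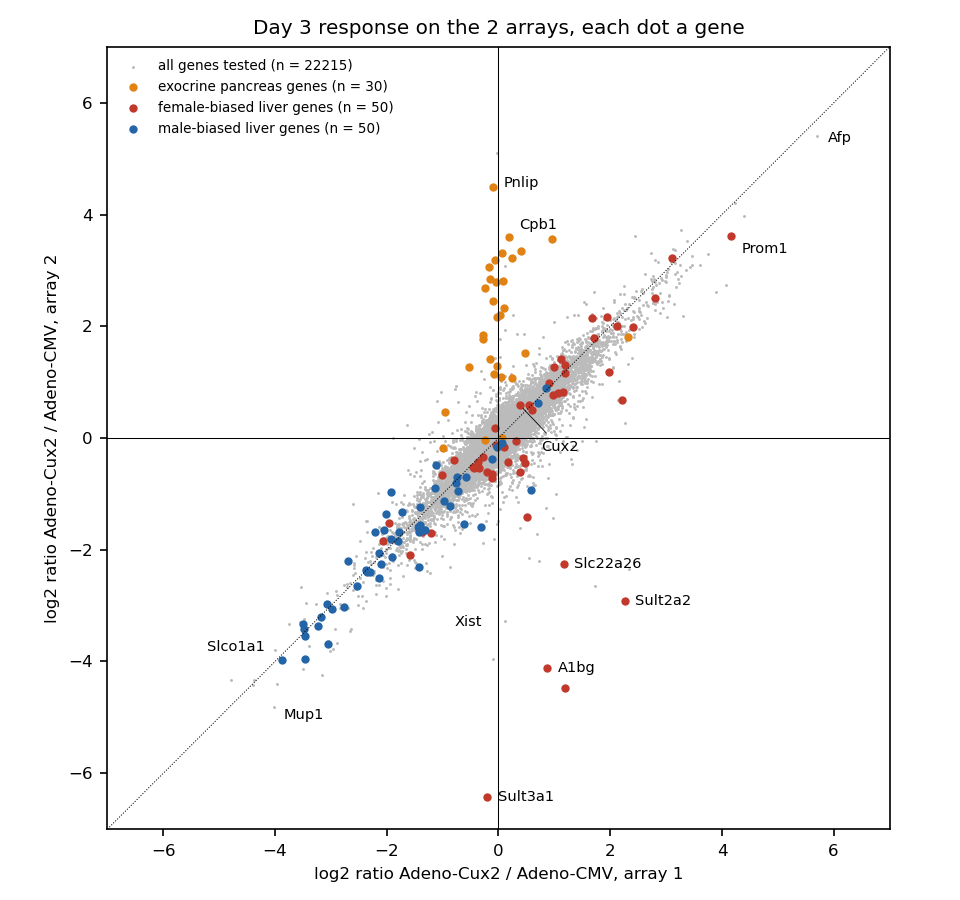
Log2 ratio of Adeno-Cux2 over Adeno-CMV on array 1 (horizontal axis) and array 2 (vertical axis), one dot per gene, with the dotted line marking equal ratios. Most genes lie along that line, while exocrine pancreas genes (orange) lie high on array 2 alone, up to 4.49 for Pnlip, and several female-biased genes (red) lie low on array 2 alone, down to −6.43 for Sult3a1.

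Among the 12 largest rises were genes of fetal liver, milk, epithelial surfaces and amino acid synthesis. Afp, alpha-fetoprotein, the main plasma protein of the fetal liver, rose most, from channel levels of 10.4 and 11.2 (log2) to 16.1 and 16.6 on arrays 1 and 2. Its ratio was 5.70 on array 1 and 5.41 on array 2, a mean of 5.56 ± 0.26 (47.0-fold higher, adjusted p = 2.62e-05). Csn3, which encodes the milk protein kappa-casein, gave 4.230 on array 1 and 4.202 on array 2, or 4.22 ± 0.26 (18.6-fold higher, adjusted p = 5.27e-05). S100g, a calcium-binding protein gene of absorptive epithelia, rose by 4.18 ± 0.26, and Prom1, a membrane glycoprotein of progenitor and duct cells, gave 4.17 on array 1 and 3.62 on array 2, or 3.89 ± 0.20 (14.9-fold higher, adjusted p = 3.48e-05). Each of the 12 was higher on both arrays, which the rule that picked them required. Plat, tissue plasminogen activator, rose by 3.53 ± 0.27, although its further probes gave 0.52 and 2.47. Asns, asparagine synthetase, stood at 3.26 on array 1 and 3.72 on array 2, a rise of 3.49 ± 0.18 (11.2-fold higher, adjusted p = 3.39e-05), and Pdk4, a kinase that shuts off pyruvate dehydrogenase, at 4.07 on array 1 and 2.74 on array 2, the widest gap between arrays among the 12. The calcium-dependent membrane-binding protein gene Anxa3 rose by 3.46 ± 0.19, the collagen receptor kinase gene Ddr1 by 3.36 ± 0.09 and Sprr1a, a cornified envelope protein, by 3.36 ± 0.19. Plet1, a surface protein of placenta and epithelia, rose by 3.28 ± 0.12 and Tinag, a basement membrane glycoprotein, by 3.26 ± 0.13. A further Csn3 probe gave 2.00. Over the alternatives the Prom1 ratio ran from 2.76 to 4.32 and that of Afp from 5.37 to 5.64.

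The 12 largest falls were led by urinary proteins and male-biased enzymes. Mup1, a major urinary protein, the pheromone-binding lipocalins that male mouse liver secretes, fell from levels of 19.43 and 18.85 to 15.40 and 14.04 on arrays 1 and 2. Its ratio was −4.03 on array 1 and −4.81 on array 2, a mean of −4.42 ± 0.29 (21.4-fold lower, adjusted p = 6.93e-05). Mup6 gave −4.39 and −4.42, Mup5 −3.97 and −4.41 and Mup3 −3.16 and −4.25 on the same arrays. Probes for Mup genes can read close relatives, so these are not independent of each other. Sult2a8, a liver sulfotransferase, stood at −4.37 on array 1 and −4.33 on array 2, or −4.35 ± 0.12 (20.4-fold lower, adjusted p = 1.42e-05), and Slco1a1, an uptake transporter for organic anions and bile acids, at −3.87 on array 1 and −3.97 on array 2, or −3.92 ± 0.16 (15.1-fold lower, adjusted p = 2.16e-05). Elovl3, an elongase of very long chain fatty acids, gave −3.71 ± 0.09, Cyp8b1, the sterol hydroxylase of cholic acid synthesis, −3.50 ± 0.20 and Hsd3b4, a hydroxysteroid dehydrogenase, −3.45 ± 0.18. Each of the 12 was lower on both arrays, again a condition of the choice. The potassium channel gene Kcnk1 gave −3.54 ± 0.12 and the carboxylesterase Ces3b −3.42 ± 0.17. Dct, dopachrome tautomerase of melanin synthesis, gave −3.43 ± 0.13 by the brightest probe and −0.40 by a further one.

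**Figure D3:**
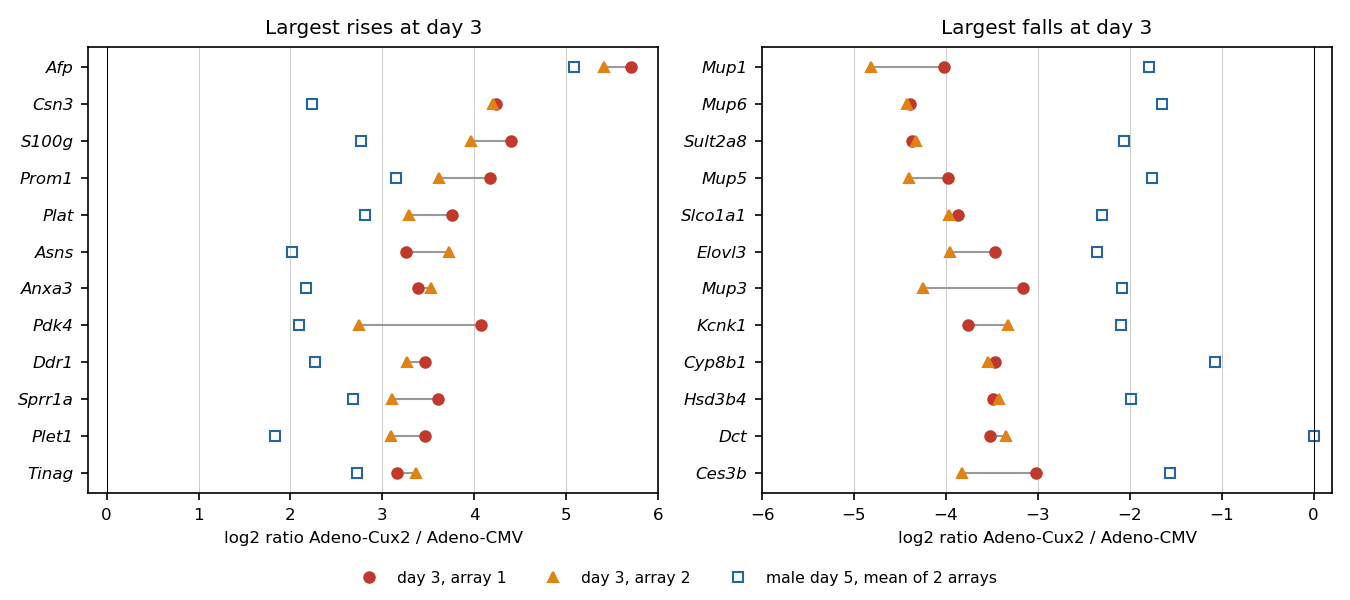
Log2 ratio of Adeno-Cux2 over Adeno-CMV (horizontal axis) for the 12 largest rises (left) and 12 largest falls (right), with circles for day 3 array 1, triangles for day 3 array 2 and open squares for the mean of the 2 male day 5 arrays. The day 3 points of each gene lie on 1 side of 0, as the choice of genes required. The square lies nearer 0 than both day 3 points for every gene drawn, which the choice of genes by their day 3 ratio favours.

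Most genes known to be male-biased in mouse liver fell at day 3. Of 50 measured, 43 were called lower and 2 higher, with medians of −1.85 on array 1 and −1.68 on array 2, against 20.3% and 23.7% of all genes. All 6 measured members of the urinary protein list were called lower (6 of 6, median −3.95, or −3.57 and −4.33 on arrays 1 and 2). The male-biased members called higher were Wfdc2, a secreted protease inhibitor of epithelia, at 0.85 and 0.90 on arrays 1 and 2, and Ihh, the hedgehog ligand, at 0.70 and 0.62, whose further probe gave −0.13. By the untreated arrays of the same series, 160 genes were higher in males by at least 2-fold, and 136 of these were called lower and 5 higher at day 3, with medians of −1.18 and −1.17 on arrays 1 and 2. These mice and arrays are separate from those of day 3, but the model is shared. Ihh lost its call with the mean over probes (adjusted p = 0.0679).

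Female-biased genes had no common direction, and their median turned with the array. Of 50 known ones 21 were called higher and 15 lower, with medians of 0.50 on array 1 and −0.25 on array 2, and 9 were lower without background subtraction and without array 2, whose Adeno-CMV pool held the female-biased signals above. Without that array the median was 0.50 and 22 were higher. Prom1 led the rises. Akr1b7, an aldose reductase family member, stood at 3.10 on array 1 and 3.22 on array 2, or 3.16 ± 0.14 (8.95-fold higher, adjusted p = 2.50e-05), and Abcc4, an efflux transporter, at 2.81 and 2.50, with a further probe at 1.15. Acot3, an acyl-CoA thioesterase, rose by 2.20 ± 0.16. These genes were higher on both arrays. Lower on both were Adh6-ps1, an alcohol dehydrogenase pseudogene, at −2.06 and −1.84, the cytochromes Cyp2c40 and Cyp2c39, at −1.84 ± 0.21 and −1.53 ± 0.09, and Ppp1r3g, a glycogen-targeting subunit, at −1.74 ± 0.26. Of 162 genes lower in untreated males by at least 2-fold, 72 were higher and 33 lower at day 3, with medians of 0.53 and 0.11 on arrays 1 and 2.

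Genes of growth hormone action and of the transcription factors that keep hepatocyte identity were more often lower than higher. Of 19 growth hormone signalling genes 10 were called lower and 4 higher (median −0.41). Igfbp2, a binding protein of insulin-like growth factors, gave −1.95 on array 1 and −1.97 on array 2, or −1.96 ± 0.13 (3.89-fold lower, adjusted p = 6.27e-05), and Ghr, the growth hormone receptor, −1.38 on array 1 and −1.34 on array 2, or −1.36 ± 0.14 (2.57-fold lower, adjusted p = 0.00039). The insulin receptor gene Insr stood at −1.13 ± 0.07, with a further probe at −0.01. Igfbp1, a binding protein raised by fasting and stress, went the other way at 3.89 on array 1 and 2.62 on array 2, or 3.26 ± 0.44 (9.55-fold higher, adjusted p = 0.0012), as did Socs1, an inhibitor of cytokine signalling, at 1.40 and 0.58 on the same arrays. Of 32 liver transcription factors 15 were lower and 4 higher (median −0.29), led by Ppara, the fatty acid receptor, at −1.45 and −1.17, Hhex at −1.29 and −1.26 and Cebpa at −1.30 and −1.17. Gata6, of early endoderm, rose by 0.76 ± 0.09 and Cebpd, of the acute-phase response, by 0.70 ± 0.22. Without array 2 the lower calls numbered 5 of 19 growth hormone genes and 9 of 32 transcription factors, and median centring left 9 of the latter. Higher calls among transcription factors numbered 2 without array 1 and with the scanner software's ratios and 1 without array 2. Cebpd lost its call without background subtraction, at a background offset of 0, with the scanner software's ratios, without array 1, without array 2, without the male day 5 array 1 and without the male day 5 array 2, with adjusted p from 0.0589 to 0.422. Socs1 stood at 0.63 without array 1.

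Most genes of the adult hepatocyte's secretory and complement functions fell, the secretory genes with unequal medians on the arrays. Of 32 hepatocyte secretory genes 20 were called lower and 3 higher, with medians of −0.22 on array 1 and −0.81 on array 2, and 13 were lower without array 2 and 1 higher without array 1 and with the scanner software's ratios. Hpd, an enzyme of tyrosine breakdown, stood at −1.83 on array 1 and −1.97 on array 2, or −1.90 ± 0.20 (3.73-fold lower, adjusted p = 0.000418), and Apoa2, an apolipoprotein of high-density lipoprotein, at −1.30 and −2.23 on the same arrays. Ahsg, a secreted mineral-binding protein, was called higher although the arrays gave 1.75 and −0.05, a gap that the dye term of the model, estimated over all 8 arrays, took up. Whether fewer hepatocytes or less RNA per cell lay behind a lower ratio cannot be told apart in these pooled livers, here and for every cell type below. Complement and coagulation genes were lower in 27 of 44 and higher in 2 (median −0.65), and 1 was higher without array 1 and with the scanner software's ratios and 4 with median centring. The medians of this list were −0.56 on array 1 and −0.83 on array 2. Members called lower included the terminal complement components C9, at −2.54 on array 1 and −2.64 on array 2, or −2.59 ± 0.14 (6.03-fold lower, adjusted p = 4.10e-05), and C8a and C8b, at −2.35 ± 0.15 and −2.18 ± 0.10. C3, the central component, was called higher at 1.40 and −0.22, on the same basis, with the arrays on opposite sides of 0. Ahsg lost its call without the dye term (the replicate block) (adjusted p = 0.332) and with the 2 arrays alone (adjusted p = 0.133). C3 lost its call without the dye term (the replicate block) (adjusted p = 0.43) and with the 2 arrays alone (adjusted p = 0.233).

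Most genes of bile acid, drug and fuel metabolism fell. Of 28 bile acid genes 18 were called lower and 6 higher (median −0.68). Beside Slco1a1 and Cyp8b1, Cyp7b1, an oxysterol hydroxylase, stood at −3.50 on array 1 and −3.33 on array 2, or −3.41 ± 0.10 (10.7-fold lower, adjusted p = 1.42e-05), and Slc10a1, the sodium-dependent bile acid uptake carrier, at −2.89 and −2.81. Among the members called higher, beside Abcc4, were the efflux pump gene Abcb1a at 1.83 ± 0.11 and Slc51b, a subunit of the basolateral exporter, at 2.66 on array 1 and 2.15 on array 2, or 2.41 ± 0.13 (5.30-fold higher, adjusted p = 4.07e-05). Among 60 xenobiotic enzymes 37 were lower and 10 higher (median −0.66, or −0.54 and −0.87 on arrays 1 and 2). Cyp2f2 gave −3.06 and −3.69, Cyp2c54 −2.90 and −3.67 and Ugt2b1, a glucuronosyltransferase, −3.06 and −2.97 on arrays 1 and 2. Cyp1a1, a target of the aryl hydrocarbon receptor, was called higher at 2.45 and 3.62, and Cyp2c55 at 1.97 and 1.80. Glucose and amino acid genes were lower in 32 of 50 and higher in 10 (median −0.67). The gluconeogenic glucose-6-phosphatase gene G6pc stood at −2.37 on array 1 and −2.92 on array 2, or −2.64 ± 0.15 (6.25-fold lower, adjusted p = 4.22e-05), and Otc of the urea cycle at −2.49 ± 0.08. The isozymes of growing and fetal cells Pkm and Hk2 rose, by 1.57 ± 0.11 and 1.06 ± 0.11, with 1 of 2 further Pkm probes at −0.01. Cyp1a1 lost its call without background subtraction, with the scanner software's ratios, with a robust prior, without array 1 and without array 2, with adjusted p from 0.0579 to 0.185.

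Most lipid synthesis genes fell, and fatty acid oxidation genes divided. Of 32 lipogenesis genes 25 were called lower and 3 higher (median −0.80). After Elovl3 came Thrsp, a lipogenic regulator, at −2.58 on array 1 and −2.27 on array 2, or −2.43 ± 0.30 (5.37-fold lower, adjusted p = 0.000892), Elovl6 at −1.87 ± 0.25 and the desaturase gene Scd1 at −0.87 and −2.30. The fetal and brain desaturase gene Scd2 rose, at 2.25 on array 1 and 2.73 on array 2, or 2.49 ± 0.12 (5.61-fold higher, adjusted p = 2.95e-05). Cholesterol synthesis and uptake genes were lower in 21 of 31 and higher in 1 (median −0.70, or −0.62 and −0.94 on arrays 1 and 2). Tm7sf2, a sterol reductase, stood at −1.66 and −1.83 and Msmo1, a sterol oxidase, at −1.28 and −1.34. The member called higher was Npc1l1, the sterol uptake protein, at 0.40 ± 0.08 (adjusted p = 0.00588). Its probe was not well above background in the Adeno-CMV pools, and its ratio ran from 0.11 to 3.08 over the alternatives, so no fold is given. Without array 2, 14 lipogenesis genes and 10 cholesterol genes were called lower. There and with the scanner software's ratios 1 lipogenesis gene was higher. Of 45 genes of PPAR-alpha and fatty acid oxidation 16 were higher and 19 lower, at a median of −0.12 that turned to 0.01 with median centring and 0.06 without array 1. The thioesterases Acot2 and Acot1 rose after Pdk4, by 2.74 ± 0.19 and 2.59 ± 0.14, as did the lipid droplet gene Cidec, at 2.51 on array 1 and 2.28 on array 2, or 2.40 ± 0.14 (5.26-fold higher, adjusted p = 5.04e-05). Among those lower was Slc27a2, a fatty acid carrier, at −1.18 and −1.09 on arrays 1 and 2. Npc1l1 lost its call with median centring (adjusted p = 0.068) and without array 1 (adjusted p = 0.121). Slc27a2 lost its call without array 1 (adjusted p = 0.0932). Scd1 lost its call without array 2 (adjusted p = 0.0504). Msmo1 lost its call without array 2 (adjusted p = 0.0873).

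Most respiratory chain genes fell by small amounts. Of 49 oxidative phosphorylation genes 44 were called lower and 1 higher, with medians of −0.39 and −0.52 on arrays 1 and 2, and no member fell by 2-fold. Sdhb and Ndufv1, of complexes II and I, stood at −0.94 ± 0.08 and −0.78 ± 0.06. The member called higher was Cycs, cytochrome c, at 0.30 ± 0.06. The count varied with the fit. Of these genes, 16 were lower without array 2, 30 without array 1 and 29 at a background offset of 0. Circadian clock genes were lower in 10 of 23 and higher in 1, with medians of −0.79 and −0.32 on the arrays. Rgs16, a daily regulator of G-protein signalling, stood at −3.54 on array 1 and −2.67 on array 2, or −3.10 ± 0.30 (8.59-fold lower, adjusted p = 0.000314), and Hlf, a clock-controlled transcription factor, at −1.46 and −0.97. Per1, a core clock gene, was called higher at 0.44 and 0.65. The hour at which livers were taken is not in the labels used here. Without array 1 the lower clock genes numbered 6, and 5 without background subtraction and with median centring, and 2 were higher without array 2. Cycs lost its call with the mean over probes (adjusted p = 0.946), without array 1 (adjusted p = 0.118) and without array 2 (adjusted p = 0.0634).

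Most fetal and regenerative genes rose. Of 20 measured, 17 were called higher, 13 of them by at least 2-fold, and 1 lower, with medians of 1.65 and 1.61 on arrays 1 and 2. Behind Afp and Akr1b7 came Cd24a, a surface glycoprotein of immature and duct cells, at 2.98 on array 1 and 2.82 on array 2, or 2.90 ± 0.13 (7.45-fold higher, adjusted p = 2.50e-05), and Ly6d at 3.14 and 2.40. The exception was Dlk1, a Notch-related fetal protein, at −1.40 and −1.56, whose further probe gave 0.51. Cytoskeleton and membrane genes moved alike, with 27 of 35 higher and 1 lower (median 1.21, or 1.30 and 1.02 on arrays 1 and 2). The calcium-binding protein gene S100a6 gave 3.08 on array 1 and 3.15 on array 2, and its relative S100a4 3.16 on array 1 and 2.94 on array 2. Anxa2, an annexin that links membranes to actin, stood at 3.31 on array 1 and 2.19 on array 2. S100a1 was the member called lower, at −0.88 ± 0.09.

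Most cell cycle genes rose, by less than 2-fold at the median. Of 40 genes of the G1 and S phases 30 were called higher and 1 lower (median 0.48), and of 38 genes of the G2 and M phases 27 higher and 0 lower (median 0.43). Ccnd1, cyclin D1, which drives entry into the cycle, stood at 3.18 on array 1 and 2.71 on array 2, or 2.95 ± 0.10 (7.70-fold higher, adjusted p = 1.45e-05). Uhrf1, which maintains DNA methylation at replication, gave 1.22 and 1.08, and Rrm2, the small subunit of ribonucleotide reductase, 1.07 and 1.22. Mcm10, a replication initiation factor, was lower, at −1.72 and −1.33, and is also on the list of male-biased genes. Kif23, a kinesin of cytokinesis, rose by 1.61 ± 0.07 and Cep55, of the midbody, by 1.10 ± 0.08, with a further Cep55 probe at 0.37. Without array 2, 18 of the first list were higher. Of the second list 14 were higher without array 1 and 14 without array 2.

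Interferon-stimulated genes had the highest share of rises among the lists described here. Of 48 measured, 44 were called higher and 1 lower, with medians of 1.08 on array 1 and 0.81 on array 2. Cxcl10, a chemokine induced by interferon, stood at 2.80 on array 1 and 2.29 on array 2, or 2.55 ± 0.21 (5.84-fold higher, adjusted p = 0.000145), Ifi44 at 2.14 on array 1 and 2.01 on array 2, or 2.07 ± 0.07 (4.21-fold higher, adjusted p = 1.42e-05), and Gbp2, a guanylate-binding protein of antimicrobial defence, at 2.23 and 1.86. Ifi27l2a rose by 1.97 ± 0.07. All of these were higher on both arrays. The member called lower was Iigp1, an interferon-inducible GTPase, at −0.33 and −0.68. Both sides of the ratio carried an adenovirus, so the values give only the excess over Adeno-CMV. The part of the infection itself in that excess was not tested. Iigp1 lost its call without array 2 (adjusted p = 0.159).

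The interferon-stimulated response element is the site through which interferon signalling turns these genes on. The letters GAAANNGAAA, N being any base, were searched on both strands of the 250 bases before each RefSeq start site (GRCm38.p6). They were found for 17 of the 34 interferon-stimulated genes with a promoter in the table (50%) and for 461 of 13673 measured genes with a promoter (3.37%). Among genes called at least 2-fold higher 41 of 757 held them (5.42%), and among those at least 2-fold lower 18 of 457 (3.94%). A gene was counted if any of its promoters held them. The promoters of Cxcl10, Gbp2 and Ifit1, genes that rose on both arrays, show where the letters lie, in capitals, in sequences written 5′ to 3′ along the gene. The windows are Cxcl10 chr5:92348890-92349139 on the minus strand, Gbp2 chr3:142620413-142620662 on the plus strand and Ifit1 chr19:34640639-34640888 on the plus strand, where Ifit1, an RNA-binding antiviral protein, rose by 1.78 ± 0.15.
Cxcl10: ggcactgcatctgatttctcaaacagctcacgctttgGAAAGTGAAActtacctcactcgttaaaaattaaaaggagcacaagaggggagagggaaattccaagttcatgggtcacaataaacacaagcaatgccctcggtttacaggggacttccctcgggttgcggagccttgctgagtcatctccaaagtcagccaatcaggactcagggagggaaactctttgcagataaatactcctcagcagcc
Gbp2: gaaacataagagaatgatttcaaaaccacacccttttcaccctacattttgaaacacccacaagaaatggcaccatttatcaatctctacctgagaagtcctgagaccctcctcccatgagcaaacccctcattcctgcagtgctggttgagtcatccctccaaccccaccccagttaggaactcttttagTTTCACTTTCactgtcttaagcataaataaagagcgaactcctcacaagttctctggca
Ifit1: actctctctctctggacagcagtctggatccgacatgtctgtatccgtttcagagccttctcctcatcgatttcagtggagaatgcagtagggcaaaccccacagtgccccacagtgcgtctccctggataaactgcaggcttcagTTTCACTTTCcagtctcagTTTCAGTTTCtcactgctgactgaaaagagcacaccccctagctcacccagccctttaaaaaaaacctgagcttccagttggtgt
The match begins 213 bases before the start of Cxcl10 and 59 before that of Gbp2, and Ifit1 holds 2, at 104 and 85 bases. In Gbp2 and Ifit1 the letters read on the opposite strand. A match describes the letters only.

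Most chemokine and cytokine genes rose, and acute-phase genes divided. Of 37 chemokines and cytokines 24 were called higher and 2 lower (median 0.69, or 0.82 and 0.57 on arrays 1 and 2). Il1rn, the interleukin receptor antagonist, stood at 3.02 on array 1 and 2.98 on array 2, or 3.00 ± 0.18 (7.99-fold higher, adjusted p = 5.43e-05), with a further probe at 1.28. Ccl2, a monocyte attractant, stood at 2.93 on array 1 and 2.44 on array 2, and Ccl7, of the same family, at 2.52 on array 1 and 2.13 on array 2. These were higher on both arrays. Il18 was lower, at −1.02 and −1.01, as was Cxcl12, at −0.59 and −0.58. Of 25 antigen presentation genes 13 were higher and 1 lower (median 0.29), and 7 were higher without array 1. The medians of this list were 0.50 on array 1 and 0.19 on array 2. Among class I genes, H2-M3 gave 0.96 on array 1 and 0.69 on array 2 and H2-T10 1.01 on array 1 and 0.63 on array 2. Cd1d1, which presents lipids, stood at −0.76 on array 1 and −0.74 on array 2. Acute-phase genes were higher in 15 of 32 and lower in 7, with medians of 0.46 and 0.03 on the arrays. The endotoxin co-receptor gene Cd14 stood at 3.06 on array 1 and 2.55 on array 2, or 2.80 ± 0.14 (6.98-fold higher, adjusted p = 3.24e-05), and Saa3, a serum amyloid gene, at 3.02 and 2.17. Crp, C-reactive protein, stood at −1.77 and −1.94, and Lifr, a cytokine receptor, at −1.77 and −1.69, with further Lifr probes from −0.83 to −0.16. H2-M3 lost its call with the scanner software's ratios (adjusted p = 0.0677) and without array 1 (adjusted p = 0.276).

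Most immediate early genes and p53 targets rose. Of 27 immediate early genes, transcription factors and regulators switched on within minutes of growth or stress signals, 22 were called higher and 1 lower (median 1.23). Egr1 stood at 2.75 on array 1 and 2.81 on array 2, or 2.78 ± 0.40 (6.87-fold higher, adjusted p = 0.00167), and Fos at 2.39 and 2.52. Dusp1, a phosphatase that ends such signals, was lower, at −0.64 and −0.90, and 2 were lower without array 2. Of 31 p53 targets and DNA damage genes 22 were higher and 3 lower (median 0.67), and 1 lower without array 2. Pmaip1, a pro-apoptotic p53 target, stood at 3.22 on array 1 and 2.84 on array 2, or 3.03 ± 0.13 (8.16-fold higher, adjusted p = 2.17e-05), and the growth arrest gene Gadd45b, on both of these lists, at 2.76 and 2.50. Ei24 was lower, at −0.56 and −0.59. Heat shock and oxidative stress genes were higher in 12 of 25 and lower in 0, with medians of 0.70 on array 1 and 0.16 on array 2, and 7 were higher without array 1. G6pdx, of the pentose phosphate pathway, gave 1.71 and 1.43 and Gstm3, a glutathione transferase, 2.15 and 0.68. Gstm3 stood at 0.86 without array 1.

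The members of the ATF4 and unfolded protein response list with the largest rises were genes of amino acid synthesis. Of 38 genes 17 were called higher and 1 lower (median 0.24), with 3 lower without array 2 and 2 with the scanner software's ratios. Phgdh, which opens serine synthesis, stood at 3.17 on array 1 and 3.14 on array 2, or 3.15 ± 0.14 (8.89-fold higher, adjusted p = 2.48e-05), and Psat1, the next enzyme, at 3.06 and 3.18, beside Asns above. Atf3 and Nupr1, stress-induced regulators downstream of ATF4, rose by 2.33 ± 0.19 and 2.15 ± 0.24. Shmt2, of mitochondrial serine use, was lower, at −0.91 and −0.89. ATF4 with a C/EBP partner binds a composite element, searched as TTGCATCA on both strands. It was found for 6 of 35 listed genes with a promoter (17.1%) and 106 of 13673 measured genes with a promoter (0.775%). Among genes called at least 2-fold higher 10 of 757 held it (1.32%), and among those at least 2-fold lower 5 of 457 (1.09%). The promoters of Atf3 and Nupr1 hold it, shown in capitals in the 250 bases before each start, Atf3 chr1:191183334-191183583 on the minus strand and Nupr1 chr7:126625471-126625720 on the minus strand of GRCm38.p6, from RefSeq.
Atf3: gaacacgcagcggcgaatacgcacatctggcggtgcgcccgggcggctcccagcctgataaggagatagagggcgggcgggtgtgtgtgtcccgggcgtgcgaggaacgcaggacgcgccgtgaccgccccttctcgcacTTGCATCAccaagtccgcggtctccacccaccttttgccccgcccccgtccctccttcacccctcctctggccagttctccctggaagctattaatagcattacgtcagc
Nupr1: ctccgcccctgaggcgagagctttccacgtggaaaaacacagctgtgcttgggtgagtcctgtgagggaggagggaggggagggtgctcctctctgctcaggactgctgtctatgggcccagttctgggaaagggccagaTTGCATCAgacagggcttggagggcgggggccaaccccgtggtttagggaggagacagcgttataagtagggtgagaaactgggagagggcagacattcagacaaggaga
In both the match begins 110 bases before the start.

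Cut-family homeodomain proteins are known to bind sites with the letters ATCGAT, which read the same on both strands. In the same 250-base windows these were found for 8 of 757 genes called at least 2-fold higher (1.06%), for 7 of 457 at least 2-fold lower (1.53%), and for 116 of 13673 measured genes with a promoter (0.848%). Of 42 male-biased genes 2 held them. These counts are small, and windows of this length say nothing of distant sites.

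Most macrophage markers rose. Of 39 markers 28 were called higher and 7 lower (median 1.00), and their summed level (log2) was 18.5 and 18.5 against 17.5 and 17.7 in the Adeno-Cux2 and Adeno-CMV pools of arrays 1 and 2. Clec4f, a lectin of Kupffer cells, fell from 9.6 and 10.1 to 7.7 and 7.6, a ratio of −2.23 ± 0.13 (4.68-fold lower, adjusted p = 4.38e-05), and the complement receptor gene Vsig4 stood at −1.61 on array 1 and −2.19 on array 2. Timd4, a receptor for dying cells on resident macrophages, gave −0.79 on array 1 and −1.31 on array 2, and Cd5l, secreted by the same cells, −0.77 on array 1 and −0.92 on array 2. Among the higher ones Chil3, a chitinase-like protein of activated macrophages, stood at 2.85 on array 1 and 3.16 on array 2, or 3.00 ± 0.13 (8.02-fold higher, adjusted p = 2.22e-05), and Lgals3, a galectin, at 3.00 and 2.79. Gpnmb, a lysosomal glycoprotein, rose by 3.17 ± 0.07 by the brightest probe and gave 0.24 by a further one.

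Neutrophil markers were higher in 17 of 21 and lower in 1 (median 1.02), with summed levels of 16.07 and 15.85 against 14.14 and 14.04. Mpo, myeloperoxidase, stood at 2.46 on array 1 and 2.63 on array 2, or 2.54 ± 0.12 (5.83-fold higher, adjusted p = 2.75e-05), and Lcn2, which hepatocytes also make in inflammation, at 2.61 and 2.09. Fpr1, the formyl peptide receptor, was lower at −1.42 and −1.42. T and natural killer cell markers were higher in 24 of 33 and lower in 2 (median 0.51), and 13 were higher without array 1. Lower calls numbered 1 without array 1 and with median centring and 0 without array 2. Their summed levels were 13.5 and 13.4 against 12.6 and 12.7, and 1 marker was not well above background in any day 3 pool. The natural killer receptor gene Klra7 rose by 1.86 ± 0.07 and the granzyme genes Gzma and Gzmb by 1.44 ± 0.14 and 1.34 ± 0.11, while Zap70, a T cell receptor kinase, was lower, at −0.81 and −0.97. B and plasma cell markers were higher in 2 and lower in 1 of 11 (median 0.05, which turned to −0.07 with median centring), and in 1 and 2 without array 1. The median of this list was also −0.07 without array 1 and −0.02 without array 2. Ighm, the mu heavy chain, gave 0.82 ± 0.09, with further probes at −0.05 and 0.03, and Jchain −0.88 ± 0.07. The part of cell numbers in these ratios was not tested. Zap70 lost its call without array 2 (adjusted p = 0.0671).

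Most stellate cell and matrix genes rose, and endothelial genes had a median near 0. Of 36 stellate and matrix genes 25 were called higher and 1 lower (median 0.75), the lower call being lost without either array, with summed levels of 18.0 and 18.1 against 17.1 and 17.1. Lgals1, a galectin, stood at 2.75 on array 1 and 2.68 on array 2, and Vim, the intermediate filament of mesenchymal cells, at 2.43 on array 1 and 2.53 on array 2. Loxl2, a collagen cross-linking enzyme, stood at 2.33 and 1.94, and Col1a1, the main fibrillar collagen, at 1.77 on array 1 and 2.01 on array 2, or 1.89 ± 0.19 (3.71-fold higher, adjusted p = 0.000356). Cholangiocyte and progenitor markers were higher in 11 of 22 and lower in 1 (median 0.31), and 7 were higher without array 1. The lower call was lost without array 2 and with median centring. After Prom1 and Cd24a came Spp1, osteopontin, at 2.16 and 2.28 and Cldn7, a tight junction protein, at 2.09 and 1.95. Endothelial markers were higher in 5 of 23 and lower in 3, at a median of 0.06 that was −0.01 without array 1. Without either array and with the scanner software's ratios 3 were higher and 0 lower, and with median centring 8 and 0. Cd34, of blood vessels, gave 1.00 on array 1 and 1.27 on array 2, and Lyve1, of sinusoids and lymphatics, 1.01 on array 1 and 0.97 on array 2.

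Most red blood cell genes fell. Of 22 measured 14 were called lower and 3 higher (median −0.34), with summed levels of 15.6 and 15.5 against 17.6 and 17.7, and 9 were lower and 0 higher without array 1. Higher calls numbered 1 without array 2, without background subtraction, with the scanner software's ratios and with median centring. Hbb-bt, an adult beta-globin gene, fell from levels of 16.4 and 16.6 to 13.3 and 12.9, a ratio of −3.35 ± 0.12 (10.2-fold lower, adjusted p = 1.90e-05). Alas2, the first enzyme of erythroid haem synthesis, stood at −2.77 on array 1 and −3.02 on array 2, or −2.90 ± 0.17 (7.44-fold lower, adjusted p = 4.39e-05), and the alpha-globin genes Hba-a1 and Hba-a2 at −2.73 ± 0.12 and −2.64 ± 0.08. Globin probes can read near-identical gene copies. Blood left in the livers and red cell precursors both carry these transcripts, and their parts were not tested. Tal1, a haematopoietic transcription factor, was called higher at 0.46 and 0.51. Tal1 lost its call with the scanner software's ratios (adjusted p = 0.0569) and without array 1 (adjusted p = 0.0885).

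Lists for tissues that could be carried along with liver had shares of calls below those of all genes for muscle and pancreas. In the main fit higher calls lay above the share of all genes for gut, skin, adipose and mesothelial genes. Lower calls did so for adipose genes and for kidney and adrenal genes. Without array 2 the share of all genes called higher, given above, fell too, and skin genes stood near it. Of 55 skeletal muscle genes 6 were higher and 6 lower (medians 0.02 and 0.24, summed levels 16.6 and 16.4 against 18.2 and 18.7), of 21 kidney and adrenal genes 1 and 5 (median −0.04), and of 23 adipose genes 7 and 7 (medians −0.15 and 0.04). Without either array 3 muscle genes and 3 kidney and adrenal genes were lower, and without array 2 adipose genes were higher in 4 and lower in 4. With the scanner software's ratios 4 kidney and 4 adipose genes were higher. Their leading members are also expressed in liver, such as Car3, carbonic anhydrase of muscle and fat, at −1.80 and −2.71, and Lpl, lipoprotein lipase, at 1.71 and 1.80. Nebl, a nebulin relative, rose by 1.69 ± 0.13, with further probes at 0.88 and 0.17, and the kidney genes Slc22a12 and Kap gave −1.37 ± 0.09 and −1.29 ± 0.12. Of 24 intestine and stomach genes 10 were higher and 2 lower (median 0.40), and 1 was lower without array 2 and with median centring. The median of this list was 0.16 on array 1 and 0.45 on array 2, and 0.10 without array 2, whose Adeno-Cux2 pool held the pancreas transcripts above. Krt20, an intestinal keratin, stood at 3.04 on array 1 and 3.02 on array 2, with 1 of 2 Adeno-CMV pools well above background, and Guca2a, guanylin, at 2.04 on array 1 and 1.93 on array 2. Vil1, villin, gave 1.57 and 1.72 and Alpi, an alkaline phosphatase, −0.47 ± 0.06. Skin genes were higher in 5 of 13 and lower in 1 (medians 0.11 and 0.65), led by Sprr1a and Krt13 (1.65 and 1.36), and 2 were higher without array 2. The lower skin call was lost without either array. Mesothelial and smooth muscle genes were higher in 7 of 20 and lower in 1 (median 0.15), and in 4 and 0 without array 2, with Krt8, which hepatocytes also express, at 2.06 and 1.28 and Cnn1, calponin, at 1.64 and 1.45. Proteasome subunits, a housekeeping set, were higher in 3 of 31 and lower in 0 (median 0.09), and in 1 without array 1, 5 with median centring and 8 without background subtraction, led by Psmd8 at 0.53 ± 0.07. Among exocrine pancreas genes, none of which was called (0 of 30 had an unadjusted p under 0.05 by limma), Amy2a5, an amylase, gave −0.96 and 0.46 and Dmbt1 2.32 and 1.81. The model's spread for a gene takes in all 8 arrays, and pancreas genes also varied within other comparisons. Pnlip stood at 15.6 and 6.3 in the 2 female day 5 Adeno-Cux2 pools. The lack of calls therefore cannot show that the day 3 pools were free of these transcripts. Alpi lost its call with the mean over probes (adjusted p = 0.0783). Cnn1 lost its call without array 2 (adjusted p = 0.0556).

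**Figure D4:**
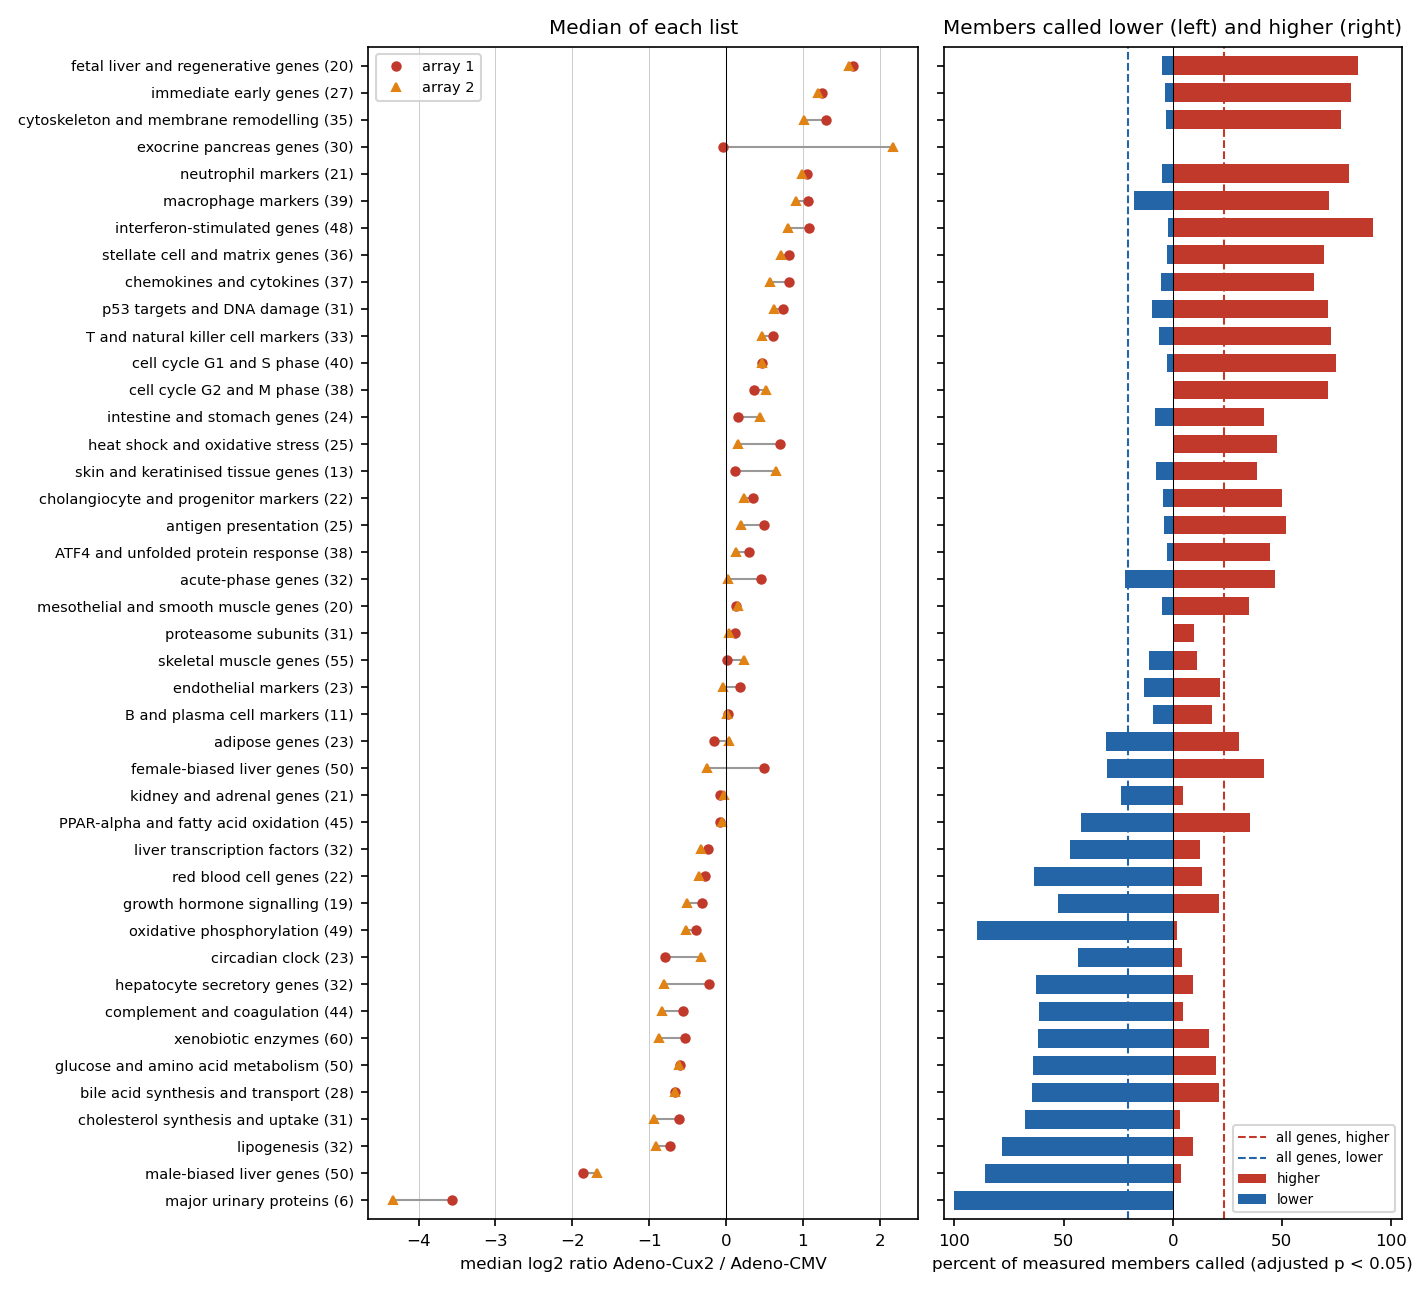
Median log2 ratio of each gene list on array 1 (circles) and array 2 (triangles), left, and percent of its measured members called lower (blue, leftward) and higher (red, rightward), right, with dashed lines for all genes (20.3% and 23.7%) and the number of measured members in brackets. Lists are ordered by median, from major urinary proteins to fetal and regenerative genes. Major urinary proteins have the largest share called lower (6 of 6) and interferon-stimulated genes the largest called higher (44 of 48). Exocrine pancreas genes differ most between the arrays (−0.04 and 2.18).

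The male mice taken 5 days after the same viruses allow the day 3 ratio to be set against a later one, with separate mice, pools and controls. Of 22215 genes, 2869 (12.9%) differed between the days, 1798 (8.09%) with a higher and 1071 (4.82%) with a lower ratio at day 5. In 2502 of them the day 3 ratio was the larger in size, and in 367 the day 5 ratio. For 100 both ratios were called and had opposite signs. At day 5, 4184 genes (18.8%) were called, 3083 (13.9%) higher and 1101 (4.96%) lower, against 9780 at day 3. The days lie on different slides, read with different versions of the scanner software, so day and slide cannot be told apart. Leaving out either untreated array gave more differences, and what follows concerns the male arrays of day 3 and day 5. Fewer differences were called when 1 array was left out, 388 and 182 without day 3 array 2, 715 and 333 without day 3 array 1, 101 and 28 without day 5 array 1, and 31 and 5 without day 5 array 2.

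The adult globin genes, Igfbp2 and the Kupffer cell lectin gene Clec4f had a ratio below 0 at day 3 and not at day 5. Hbb-bt gave −3.06 and −3.64 at day 3 and 0.48 and 0.49 at day 5, a difference of 3.83 ± 0.18 (adjusted p = 0.00102), and Hba-a1 and Hba-a2 differed by 3.12 and 2.94. Igfbp2 gave −1.95 and −1.97 at day 3 and 1.64 and 1.21 at day 5, a difference of 3.39 ± 0.18 (adjusted p = 0.00124), and Clec4f −1.94 and −2.51 at day 3 and 1.14 and 0.84 at day 5, a difference of 3.22 ± 0.18 (adjusted p = 0.00128). For these genes both arrays of day 3 lay below 0 and both of day 5 above it. Levels differed between the days in both groups. With Adeno-CMV, Igfbp2 stood at 13.2 and 13.1 at day 3 and 11.5 and 11.8 at day 5, and Hbb-bt at 16.4 and 16.6, then 15.3 and 15.2. With Adeno-Cux2, Igfbp2 stood at 11.3 and 11.1, then 13.2 and 13.0, and Hbb-bt at 13.3 and 12.9, then 15.7 and 15.6. Dct, low at day 3, stood at −0.42 and 0.43 at day 5, a difference of 3.44 ± 0.18 (adjusted p = 0.00124). Mup6 was lower at both days, −4.39 and −4.42 and then −2.13 and −1.16, a difference of 2.76 ± 0.43 (adjusted p = 0.011) that lost its call without any 1 of the male arrays of day 3 and day 5 and with the scanner software's ratios. For Slc22a26, an organic anion transporter of the female-biased list, the difference was 3.36 ± 0.83 (adjusted p = 0.0457), but its day 3 arrays gave 1.17 and −2.26, the second with the female-biased signals above. Its difference ran from 1.63 to 5.09 and lost its call in 11 of the 21 alternatives that gave one, leaving out either day 5 array among them.

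Other genes rose at day 3 and less, or not, at day 5. Cidec, of large lipid droplets, gave 2.51 and 2.28 at day 3 and −0.22 and −0.31 at day 5, a difference of −2.66 ± 0.20 (adjusted p = 0.00219). Fbp2, a muscle fructose bisphosphatase, gave 2.88 and 2.77 and then 0.90 and 0.74, a difference of −2.01 ± 0.14 (adjusted p = 0.0019). Csn3 gave 4.230 and 4.202 at day 3 and 1.98 and 2.50 at day 5, with a difference of −1.98 ± 0.36 (adjusted p = 0.018) that lost its call without any 1 of these arrays, at a background offset of 0 and with the scanner software's ratios. Angpt2, an angiopoietin, Lmo1, a LIM-only protein, and Hkdc1, a hexokinase relative, differed by −1.83, −1.93 and −1.76. Vnn1, a pantetheinase, was near 0 at day 3 (−0.07 and 0.18) and at −2.05 and −1.88 at day 5, a difference of −2.02 ± 0.28 (adjusted p = 0.0083). The calls for Vnn1 and Hkdc1 were lost without day 3 array 2, without either day 5 array and with the scanner software's ratios, that for Lmo1 without day 5 array 2 and with those ratios, and those for Fbp2 and Angpt2 without day 5 array 2. Among the 12 largest rises and 12 largest falls, the day difference was called for 18, and for 1 of these, Dct, whichever male array of day 3 or day 5 was left out. These genes were chosen for large day 3 ratios, a choice that by itself favours smaller ratios at day 5. The difference was not called for Afp, at 5.70 and 5.41 on day 3 and 5.25 and 4.91 on day 5, or Prom1, at 4.17 and 3.62 and then 3.26 and 3.03, which does not show that the days were alike.

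By list, many of the hepatocyte genes that were low at day 3 had a ratio nearer 0 at day 5. Median ratios at day 3 and day 5 were −0.65 and −0.04 for complement and coagulation genes, of which 27 of 44 had a called higher ratio at day 5 and 0 a lower one, against 8.09% and 4.82% of all genes. For bile acid genes they were −0.68 and −0.04 (15 of 28 higher at day 5, 3 lower), for glucose and amino acid genes −0.67 and −0.02 (22 of 50 and 2), and for xenobiotic enzymes −0.66 and 0.03 (34 of 60 and 0). Male-biased genes had medians of −1.78 and −0.87 (28 of 50 higher at day 5, 2 lower), and lipogenesis genes of −0.80 and −0.15 (10 of 32 and 1). Interferon-stimulated genes stood at 0.95 and 0.88 (1 of 48 higher at day 5, 4 lower) and fetal genes at 1.62 and 1.17 (1 of 20 and 2). Macrophage markers were higher at day 5 in 18 of 39 and lower in 2 (medians 1.00 and 1.39), neutrophil markers in 9 of 21 and 0 (1.02 and 1.27), and red blood cell genes in 14 of 22 and 0 (−0.34 and 0.28). Cell cycle genes of the G1 and S phases had medians of 0.48 and 0.03 (1 of 40 higher at day 5, 17 lower), and p53 targets of 0.67 and 0.38 (3 of 31 and 12). These counts fell with an array left out. Higher ratios at day 5 numbered 18 complement genes without day 3 array 1, 12 without day 3 array 2, 2 without day 5 array 1 and 0 without day 5 array 2. In the same order they numbered 25, 20, 9 and 1 for xenobiotic enzymes, 19, 11, 4 and 1 for male-biased genes, 15, 11, 3 and 1 for glucose and amino acid genes, 11, 7, 3 and 2 for bile acid genes and 3, 2, 0 and 0 for lipogenesis genes. For macrophage markers they numbered 13, 11, 5 and 3, for neutrophil markers 5, 4, 3 and 3 and for red blood cell genes 9, 9, 5 and 5. Lower ratios numbered 6, 4, 0 and 0 for genes of the G1 and S phases and 0, 1, 0 and 0 for p53 targets. The interferon-stimulated and fetal calls also fell, to 0 of either list without day 5 array 2.

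**Figure D5:**
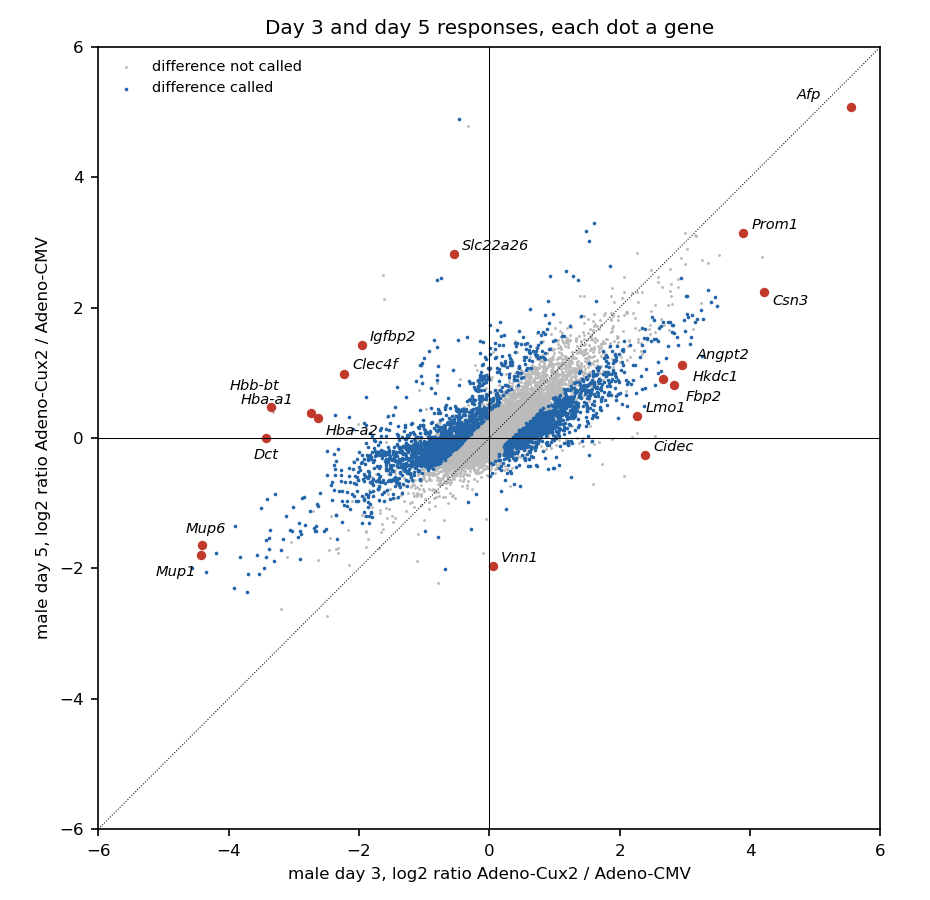
Log2 ratio of Adeno-Cux2 over Adeno-CMV in males at day 3 (horizontal axis) and day 5 (vertical axis), one dot per gene, blue where the difference between the days was called, with the dotted line marking equal ratios. Red dots mark named genes, such as Hbb-bt (−3.35 and 0.48), Cidec (2.40 and −0.27) and Afp (5.56 and 5.08).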

How the data were processed

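Liver RNA pools were compared on 8 two-colour Agilent arrays annotated on mm8, 2 for each of 4 comparisons with the dyes swapped. Per the file headers, the deposited scanner files hold the median intensity of each spot and its local background in the green and red channels. They also hold the log10 ratio of red over green after the scanner software's background and dye correction. The flags for spots well above background, saturated or outlying are a score of 0 or 1 set by that software, per the file headers. The deposited series values equal these log10 ratios up to sign (largest difference 5e-06).

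Intensities were background-corrected with limma 3.58.1 (R 4.3.3, data.table version 1.17.8) by normexp with an offset of 50, loess-normalized within arrays without control and outlier spots, and turned to Adeno-Cux2 over Adeno-CMV. The 43379 gene spots gave 41174 probes, of which 33330 were well above background in a channel on both arrays of a comparison. The brightest probe stood for each of 22215 genes. Of the probes, 24496 were named by accession and 6234 by symbol in RefSeq's gene table (GRCm38.p6), 2386 by synonym, and 8058 kept the file's name. Among 3971 called genes with several probes, 80.5% had all probes in 1 direction. A channel level is the log2 of the normalized signal and was not compared between genes.

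One limma model (lmFit, eBayes, residual df 3, prior df 3.63) took in all 8 arrays, with 1 term for each comparison and 1 for the dye, which equals the replicate number. Day 5 minus day 3 is a contrast of it. P-values were adjusted over all genes. The fit was tested on simulated ratios. A probe not well above background in every pool of a group has only a bound there, and no fold is given for it.

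Genes were named by rule: Cux2, the 12 largest rises and falls, up to 4 called members each way of each list, 8 each way between the days and 10 each way between the arrays, leaving out clone, accession and predicted-gene names. The 12 rises and falls were taken among called genes with the same sign on both day 3 arrays. The members and lists were chosen with earlier results of these data known. Some items the rule names are not reported here. The closing section gives the alternatives, and the female day 5 arrays entered the fit and the levels of Xist and the other genes set beside the day 3 pools.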

Additional observations from a re-analysis of the deposited data

Results flagged for a closer look

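The ratios of Adeno-Cux2 over Adeno-CMV at day 3 and day 5 in males differed, by the contrast in the limma model, for 30 of the genes named by the rule. Values are log2 ratios at day 3 and at day 5, with the difference, day 5 minus day 3, in brackets. Adjusted p ran from 0.000873 to 0.0457.

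Genes named for the largest day 3 ratios were chosen in a way that favours a smaller ratio at day 5. Urinary protein genes were lower at both days, and more so at day 3: Mup1 −4.42 and −1.79 (2.63), Mup6 −4.40 and −1.64 (2.76), Mup5 −4.19 and −1.76 (2.43) and Mup3 −3.71 and −2.08 (1.62). The other genes of largest fall did likewise except Dct: Slco1a1 −3.92 and −2.30 (1.62), Elovl3 −3.71 and −2.36 (1.35), Cyp8b1 −3.50 and −1.07 (2.43), Hsd3b4 −3.45 and −1.99 (1.47), Sult2a8 −4.35 and −2.06 (2.29), Kcnk1 −3.54 and −2.09 (1.45), Dct −3.43 and 0.01 (3.44) and Ces3b −3.42 and −1.56 (1.86). Among the largest rises with a called difference the day 5 ratio was the smaller: Csn3 4.22 and 2.24 (−1.98), Asns 3.49 and 2.02 (−1.47), Anxa3 3.46 and 2.17 (−1.29), Pdk4 3.41 and 2.09 (−1.32), Ddr1 3.36 and 2.26 (−1.10) and Plet1 3.28 and 1.83 (−1.45). The adult globin genes, Igfbp2, Clec4f and Slc22a26 had a ratio below 0 at day 3 and above 0 at day 5: Hbb-bt −3.35 and 0.48 (3.83), Hba-a1 −2.73 and 0.39 (3.12), Hba-a2 −2.64 and 0.31 (2.94), Igfbp2 −1.96 and 1.43 (3.39), Clec4f −2.23 and 0.99 (3.22) and Slc22a26 −0.55 and 2.82 (3.36). Genes with a lower ratio at day 5 were Cidec 2.40 and −0.27 (−2.66), Vnn1 0.05 and −1.96 (−2.02), Fbp2 2.83 and 0.82 (−2.01), Lmo1 2.27 and 0.34 (−1.93), Angpt2 2.96 and 1.12 (−1.83) and Hkdc1 2.67 and 0.91 (−1.76).

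The days lie on different slides, so day and slide cannot be told apart. Without day 3 array 1, 7 of these 30 genes lost the call, and without day 3 array 2 13 did. Without day 5 array 1 19 lost it and without day 5 array 2 23. With the scanner software's ratios 14 lost it. Hbb-bt, Hba-a1, Hba-a2, Igfbp2, Clec4f, Dct and Cidec kept the call under every alternative that gave this contrast. For Slc22a26 the arrays of day 3 opposed each other (1.17 and −2.26), and array 2 carried female-biased signals in its Adeno-CMV pool.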

How the results depend on the processing

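Of the counts of calls recomputed under each alternative, 35 of 142 left the range of 1.5 times the main count. For single genes, 6337 values kept their direction and side of the threshold, 302 lost the call, 40 gained it and 4 turned: without replicate 1 and without replicate 2, Cck stood at −1.60 and 1.60, Slc22a26 at −2.28 and 1.19, A1bg at −4.13 and 0.89, and Sult2a2 at −3.02 and 2.36. Counts of list members stayed within that range in 1721 cases and left it in 171. List medians moved by no more than the standard deviation of the medians on arrays 1 and 2 in 816 cases and by more in 130.

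As reported, 5272 genes were higher and 4508 lower at day 3, 1798 had a higher and 1071 a lower ratio at day 5 than at day 3, 72 female-biased genes of the untreated arrays were higher and 136 male-biased ones lower. Leaving out 1 of the 8 arrays at a time gave 3136 to 5833 genes higher and 2288 to 5057 lower, 31 to 2371 with a higher and 5 to 1500 with a lower ratio at day 5, 51 to 168 female-biased and 116 to 177 male-biased calls. The highest counts of day 3 calls and day differences came without either untreated array. The main calls were 53.9% higher, against 46.8% with the scanner software's ratios and 68.5% with median centring, which gave 2794 lower genes and 770 with a higher ratio at day 5. The scanner software's ratios, and the identical series values, gave 446 and 203 day differences, 136 female-biased and 210 male-biased calls. An offset of 0 gave 894 and 417 day differences, and no background subtraction 34 female-biased and 77 male-biased calls. At an adjusted p under 0.01 there were 2957 lower genes and 561 and 257 day differences. By at least 2-fold there were 1062 higher and 678 lower genes, 437 and 148 day differences and 43 female-biased calls. Without the second untreated array, which redefines the sex-biased sets, 168 of 310 female-biased genes were higher. Beyond the settings' own construction (fewer arrays, stricter thresholds), the cause of these changes was not tested.

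The dye term is the replicate block. Without the replicate block 4881 genes were higher and 4067 lower, with 1432 and 876 day differences. Deviations of arrays with the same number correlated between comparisons at −0.10 to 0.30 and not always above 0.1, so the numbers were not taken to pair the samples. The arrays of 1 slide alone cannot give the difference between the days, and that alternative was not run for it. With 2 arrays of pooled RNA, 1679 genes not well above background in either group at day 3 have no measured level.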
